A study of Mus musculus with 9 samples.

Results

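Neurotransmitter is released when a synaptic vesicle fuses with the membrane of the nerve ending, and the genes described here encode the proteins that store, dock, fuse and recycle those vesicles. A gene was taken where its array name was Syp or Syn1 to Syn3, began with Syt, Stx, Vamp, Cplx, Snap or Rims plus a digit, or began with Sv2 or Rab3. By that rule 77 of the 18193 genes with a probe set of their own were members, and 64 of them were tested, among 10864 genes in all. Testing required a probe set that reached log2 5 on 2 arrays out of 9 or more, and the probe set of highest mean stood for the gene. The members fell into 32 neuronal genes of the release site, 26 general membrane trafficking genes, 7 other synaptotagmins, and 12 GTPases from Rab30 to Rab39, which the prefix takes in although they are not Rab3 isoforms. The tested numbers were 23, 25, 6 and 10 in that order.

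Fusion is driven by SNARE proteins, which sit on facing membranes and zip into a bundle that pulls the membranes together. At the synapse the bundle is built of a synaptobrevin on the vesicle (Vamp2) with a syntaxin (Stx1a) and Snap25 on the plasma membrane. A synaptotagmin on the vesicle senses calcium, complexins clamp and promote the bundle, and Rab3 proteins with their Rims partners bring vesicles to the release site. Relatives of each SNARE serve fusion in the Golgi, endosomes and lysosomes of every cell type. The olfactory bulb is the forebrain structure that receives the axons of the nose, and its projection neurons, the mitral and tufted cells, are born before most of its interneurons.

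RNA came from dissected olfactory bulbs of CD1 mice, an outbred stock, at embryonic day 11 (E11), E12, E13, E14, E15, E16, E17, E18 and at birth (P0, placed at day 19). Each age had 1 Affymetrix array. All groups were of the same stock and differed by age alone in the labels, which name no treatment or mutation and do not say how many embryos were pooled for an array. With no replicate at any age, each p-value below sets a trend against the scatter of the 9 arrays around it, and their number limits the precision of every value. Levels are log2 values, and since probe sets differ in brightness, changes are compared between genes and levels are not.

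The median log2 level of the arrays lay between 4.08 and 4.23. Xist and the Y-linked genes read as female at E11, E12, E15 and P0 and as male at the other 5 ages. The gap between 3' and 5' probe sets of actin was 1.48 to 1.91 log2 units, after 2 rounds of RNA amplification according to the labels. The same gap for Gapdh was 1.55 at E11, 1.77 at E12, 1.67 at E13 and 2.12 at E14, its highest value. From E15 on it lay between 1.87 and 2.07, so by this measure the arrays were not even over age. Markers of the labelled tissue were on the arrays: all 4 mitral and tufted cell markers and all 5 interneuron markers passed the level filter. Of 6 markers of the olfactory sensory neurons that line the nose, 4 did not (Omp, Gng8, Stoml3 and Cnga2). Adcy3 and Gng13 did, and both rose with age (slopes of 0.28 and 0.50 log2 units per day, limma adjusted p 0.00118 and 0.00143). Gng13 passed only through E18 and P0 (6.30 and 6.25), its highest arrays, so its rise is partly what let it be tested.

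Syn1 and Syn2 encode synapsins, which tether vesicles in a reserve pool, and Stx1a and Stx2 are the syntaxin pair compared further on. The promoters of these genes are shown because they belong to the synapsin with the largest rise of all members, the synapsin whose window held both of the long motifs searched, and a pair of syntaxins whose courses moved apart. Each window runs from 250 bases before to 50 after the RefSeq start of the gene in GRCm38.p6, 5' to 3' on the gene's strand. Capitals mark every match, on either strand, to one of the motifs named in the sentences after the sequences.
Syn1 promoter, chrX:20920869-20921168, minus strand: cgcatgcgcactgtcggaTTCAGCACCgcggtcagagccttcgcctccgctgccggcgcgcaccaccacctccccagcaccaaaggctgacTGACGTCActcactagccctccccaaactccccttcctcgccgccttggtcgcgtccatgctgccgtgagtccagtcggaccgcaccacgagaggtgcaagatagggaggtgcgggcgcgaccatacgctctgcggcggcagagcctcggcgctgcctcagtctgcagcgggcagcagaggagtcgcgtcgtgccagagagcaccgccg
Syn2 promoter, the first of 2 windows, chr6:115134652-115134951, plus strand: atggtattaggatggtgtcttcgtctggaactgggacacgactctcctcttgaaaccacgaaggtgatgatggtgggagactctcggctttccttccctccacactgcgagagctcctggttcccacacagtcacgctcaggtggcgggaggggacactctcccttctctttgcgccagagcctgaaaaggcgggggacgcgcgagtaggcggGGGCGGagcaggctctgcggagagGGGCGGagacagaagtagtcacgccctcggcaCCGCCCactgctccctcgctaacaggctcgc
Stx1a promoter, chr5:135023232-135023531, plus strand: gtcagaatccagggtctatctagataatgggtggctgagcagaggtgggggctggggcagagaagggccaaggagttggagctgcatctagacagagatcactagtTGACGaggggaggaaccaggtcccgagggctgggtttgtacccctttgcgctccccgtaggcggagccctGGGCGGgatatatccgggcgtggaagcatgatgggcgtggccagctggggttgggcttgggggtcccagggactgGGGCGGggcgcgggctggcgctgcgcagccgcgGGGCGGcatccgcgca
Stx2 promoter, the first of 2 windows, chr5:129008523-129008822, minus strand: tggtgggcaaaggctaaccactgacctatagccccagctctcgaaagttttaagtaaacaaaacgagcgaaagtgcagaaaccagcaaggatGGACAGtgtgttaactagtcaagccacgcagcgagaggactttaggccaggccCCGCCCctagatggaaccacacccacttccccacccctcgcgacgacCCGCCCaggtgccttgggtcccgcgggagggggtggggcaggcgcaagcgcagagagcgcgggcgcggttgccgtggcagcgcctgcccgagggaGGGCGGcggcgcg
The Syn1 window held TTCAGCACC, the core of the site for the repressor REST, and TGACGTCA, the cyclic AMP response element. It was the only window of the 50 member genes in the promoter table with either, on either strand. Over all 27025 genes of that table, 0.433% held TTCAGCACC and 2.03% held TGACGTCA, and over its 8833 tested genes 0.555% and 3.77%. GGACAG, another part of the REST site, was found in 4 of 16 neuronal and 5 of 23 general genes, against 24.7% of all genes in the table and 26.1% of the tested ones. The shorter TGACG, which lies inside TGACGTCA, was found in 5 of 16 neuronal and 8 of 23 general genes, against 23.0% of all genes in the table and 36.8% of the tested ones. GGGCGG, a GC box motif added after the data had been seen, was in 14 of 16 neuronal and 19 of 23 general genes, against 38.2% of all genes in the table and 71.2% of the tested ones. The 4 printed windows had a GC content between 62.3% and 68.3%.

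**Figure D1:**
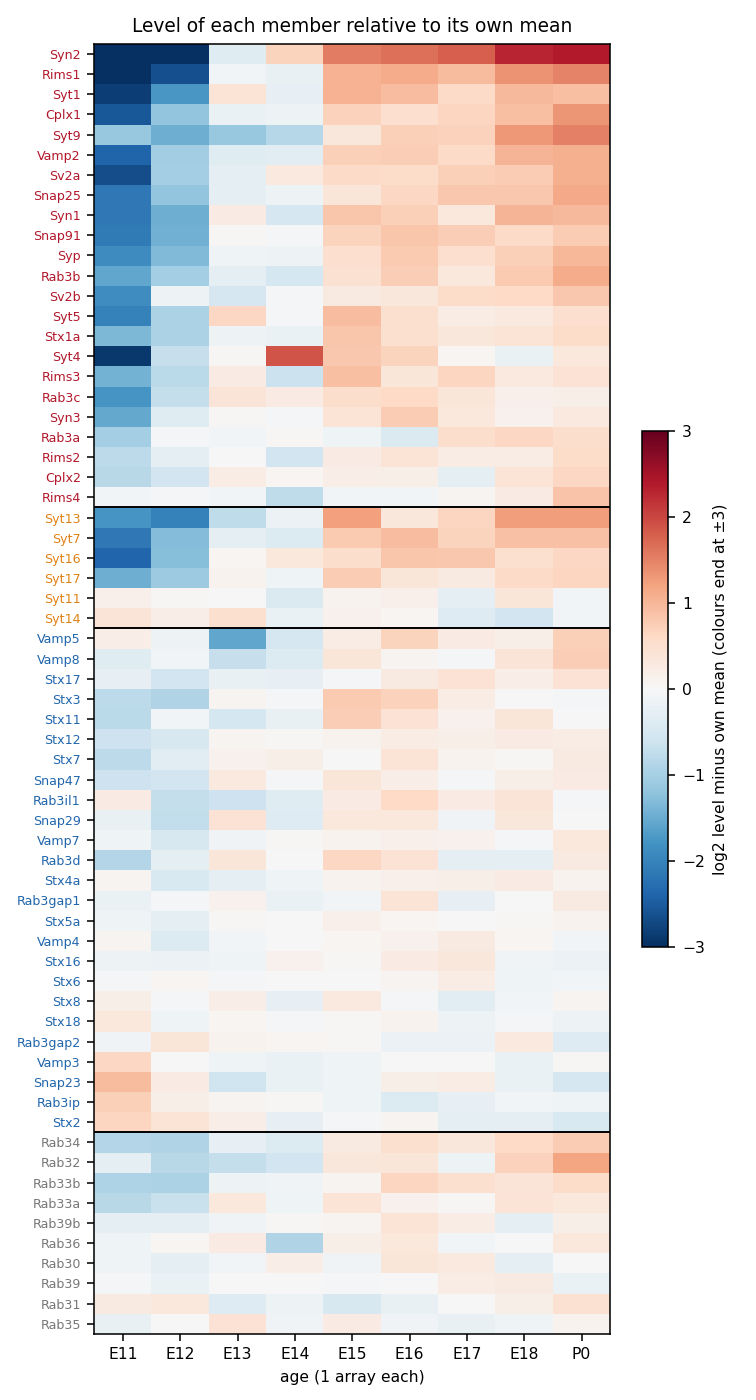
Log2 level of each of the 64 tested members at each age (1 array each), minus its own mean over the 9 arrays, with colours ending at 3 units either way. Rows are ordered by class and slope, and gene names are coloured by class. Most neuronal rows turn from below to above their mean between E12 and E15, while most general rows stay near 0.

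Of the 64 tested members, 34 rose with age and 3 fell at an adjusted p under 0.05 (limma, slope on age in days, Benjamini-Hochberg over all 10864 genes). Over all tested genes 25.2% rose and 21.9% fell. The median slope was 0.12 log2 units per day over the members and 0.002 over all genes. The rise was spread unevenly over the classes: 20 of 23 neuronal genes rose and 0 fell, whereas 6 of 25 general genes rose and 2 fell, a share of 24.0% rising that lies near the 25.2% of all genes. Median slopes were 0.31 for neuronal genes, 0.054 for general genes, 0.28 for the other synaptotagmins and 0.041 for Rab30 to Rab39. Slopes of 0.3 or more were found in 12 neuronal genes and in 0 general genes. The neuronal genes with a test that missed the threshold were Rab3c, Syt4 and Rims4. From E13 to P0 alone 19 members rose, 10 of them neuronal: Cplx1, Rab3b, Rims1, Snap25, Sv2a, Sv2b, Syn2, Syp, Syt9 and Vamp2. In that shorter fit 14.0% of all genes rose. In RNA of a whole bulb, more cells of a type and more RNA per cell cannot be told apart.

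The level filter shaped these counts. Of the 77 members, 13 did not pass it, and 9 of those were neuronal: Cplx3, Cplx4, Sv2c, Syt2, Syt3, Syt6, Syt10, Syt12 and Vamp1. The others were Stx19, Syt8, Rab37 and Rab38. Their highest value on any array was 4.80, for Syt2, so no course is described for them. A further 6 members reached log2 5 on some arrays only: Syn2 on 7, Syt5 on 8, Syt13 on 5, and Rims4, Stx11 and Rab32 on 2 each. With no filter, 29 of all 77 members rose, 2 fell and 46 missed the threshold, and among the 32 neuronal genes 18 rose. Of all 18193 genes, 14.7% rose and 12.3% fell in that fit. Syt15 was not analysed here.

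**Figure D2:**
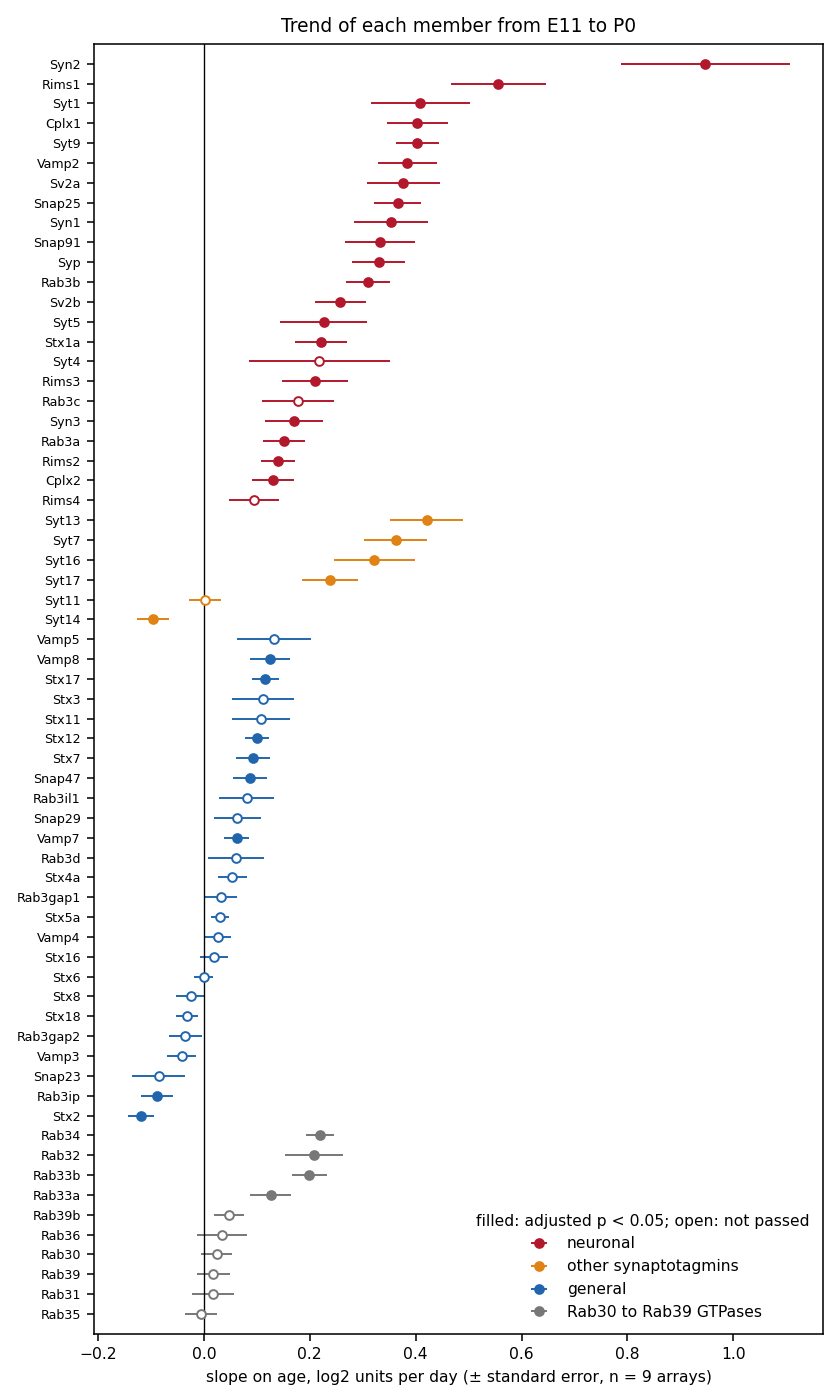
Slope on age of each tested member in log2 units per day, with bars of 1 moderated standard error (n = 9 arrays), coloured by class and filled where the adjusted p was under 0.05. Neuronal genes take the upper end, led by Syn2 at 0.95 and Rims1 at 0.56, and general genes lie between -0.12 and 0.13.

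Among the proteins of the vesicle itself, Syp encodes synaptophysin, an abundant membrane protein of the synaptic vesicle and a standard marker of synapses. Its log2 levels from E11 to P0 were 7.35, 7.91, 9.09, 9.07, 9.72, 10.01, 9.73, 9.93 and 10.22. Each step to E13 was upward, E13 and E14 read alike, and P0 was the highest array. Syp rose 7.34-fold between the E11 and P0 arrays, with a slope of 0.33 ± 0.05 per day (adjusted p 0.000519) (log2 units per day ± moderated standard error, limma, as for all slopes below).

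Synapsins coat the vesicle and hold it in the reserve pool. Syn1 read 5.08, 5.75, 7.46, 6.71, 8.05, 7.92, 7.52, 8.24 and 8.19 from E11 to P0. Its lowest arrays were E11 and E12, and E14 and E17 both lay under their neighbours. The slope was 0.35 ± 0.07 per day (adjusted p 0.00233), with a P0 level 8.64-fold over E11. Syn2 read 2.88, 3.48, 7.78, 8.82, 9.69, 9.81, 9.94, 10.43 and 10.53 at the same ages. The E11 and E12 values were under the filter level, the gain between E12 and E13 was 4.30 log2 units, and every later array was higher than the one before. Its slope of 0.95 ± 0.16 per day (adjusted p 0.000986) was the largest of all members, and P0 was at least 46.3-fold over E11 when values under 5 are set to 5. With values under 5 set to 5 the Syn2 slope was 0.73 (adjusted p 0.000324). All 3 other Syn2 probe sets past the filter rose as well, with slopes of 0.59 to 0.77, but the timing differed between sets. From E12 to E15 the set with a slope of 0.64 read 4.44, 5.03, 4.34 and 7.58. The set with a slope of 0.59 read 2.77, 4.07, 5.28 and 6.34 at those ages, so the large step to E13 was not seen on either. Syn3 read 7.56, 8.73, 9.14, 9.04, 9.50, 9.85, 9.41, 9.23 and 9.40, high at E16 and low at E11, with a slope of 0.17 ± 0.055 per day (adjusted p 0.0266). Without the E11 array the Syn3 slope was 0.078 (adjusted p 0.158, limma).

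Sv2a and Sv2b encode glycoproteins of the vesicle membrane, the first of which is the binding site of the drug levetiracetam. Sv2a read 7.28, 8.93, 9.66, 10.24, 10.52, 10.50, 10.67, 10.71 and 11.02 from E11 to P0, with most of the gain before E14 and the highest value at P0. It rose by 0.38 ± 0.068 per day (adjusted p 0.0014), and P0 was 13.4-fold over E11. Sv2b read 6.57, 8.28, 7.94, 8.37, 8.71, 8.78, 8.99, 9.04 and 9.24, and the gain of 1.71 between E11 and E12 was its largest daily step. Its slope was 0.26 ± 0.048 per day (adjusted p 0.00177), which became 0.17 without the E11 array (adjusted p 0.00177). A different Sv2b probe set had a slope of 0.072 and missed the threshold (adjusted p 0.335), so the size of the Sv2b rise differs between probe sets.

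**Figure D3:**
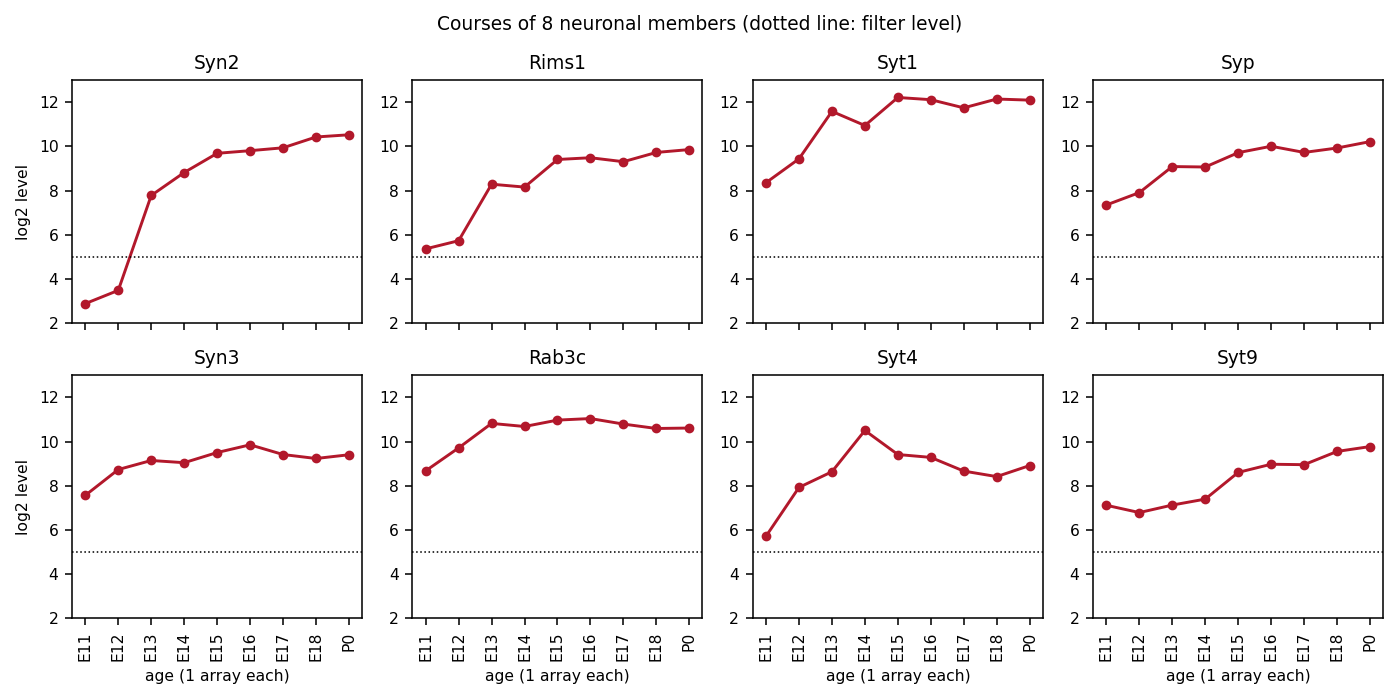
Log2 levels of 8 neuronal members at each age (1 array each), with the filter level of 5 as a dotted line. Syn2 starts under the line at E11 and E12 and ends at 10.53, and most of the 8 genes gain more before E15 than after it.

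Several synaptotagmins of the neuronal class sense calcium for release. Syt1, the sensor of fast release in most forebrain neurons, read 8.36, 9.44, 11.59, 10.95, 12.22, 12.12, 11.75, 12.15 and 12.10 from E11 to P0. The levels were low at E11 and E12, and E14 lay 0.64 units under E13. The slope was 0.41 ± 0.093 per day (adjusted p 0.00484), and 2 of its 3 other probe sets rose with slopes of 0.34 and 0.36, while the third had a slope of 0.084 that missed the threshold. Syt9, which also triggers fast release in a subset of neurons, followed a later course: its levels were 7.11, 6.78, 7.12, 7.39, 8.60, 8.97, 8.95, 9.55 and 9.77. The first 4 arrays showed no clear climb, the step from E14 to E15 was 1.21 units, and all later arrays were higher than every earlier one. The slope was 0.40 ± 0.041 per day (adjusted p 5.54e-05). Syt5 had a slope of 0.23 ± 0.082 per day (adjusted p 0.0426), which held only with particular arrays: without E11 it was 0.105 (adjusted p 0.277), and without E12, E14, E16, E17, E18 or P0 the adjusted p lay between 0.053 and 0.103. Syt4, a synaptotagmin that lacks an aspartate used in calcium binding and sits on dense-core vesicles, did not follow a line. It read 5.71, 7.92, 8.63, 10.50, 9.41, 9.28, 8.66, 8.41 and 8.91, low at E11 and highest at E14, with a slope of 0.22 ± 0.13 (SE, adjusted p 0.202). A different Syt4 probe set also peaked at E14, at 9.66, and its slope of 0.32 passed the threshold (adjusted p 0.0473). Without the E11 array the Syt4 slope was 0.0020.

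Of the SNAREs of the synapse, Snap25 on the plasma membrane read 9.36, 10.33, 11.24, 11.36, 11.87, 12.13, 12.32, 12.31 and 12.64 from E11 to P0. It climbed at every step but the one from E17 to E18, with a slope of 0.37 ± 0.045 per day (adjusted p 0.000153) and a P0 level 9.74-fold over E11. Vamp2, the vesicle synaptobrevin, read 7.76, 9.13, 9.80, 9.85, 10.87, 10.90, 10.75, 11.19 and 11.23. All arrays from E15 on were higher than all before, the slope was 0.38 ± 0.056 per day (adjusted p 0.000433), and P0 was 11.1-fold over E11. Stx1a, the plasma membrane syntaxin, read 8.71, 9.11, 9.91, 9.86, 10.89, 10.52, 10.40, 10.45 and 10.61 and was highest at E15. Its slope was 0.22 ± 0.049 per day (adjusted p 0.00409), and P0 was 3.75-fold over E11. Second probe sets rose too for Snap25 (0.30), Vamp2 (0.20) and Stx1a (0.34).

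Complexins bind the assembled bundle. Cplx1 read 8.25, 9.60, 10.58, 10.63, 11.48, 11.30, 11.44, 11.70 and 12.11 from E11 to P0, with a slope of 0.40 ± 0.058 per day (adjusted p 0.000386) and a P0 level 14.6-fold over E11. Its largest step, 1.35 units, was between E11 and E12, and a second probe set rose by 0.45 per day. Cplx2 read 5.76, 6.03, 6.81, 6.66, 6.79, 6.78, 6.34, 7.01 and 7.21, a span of 1.45 units with E17 under its neighbours. The Cplx2 slope was 0.13 ± 0.04 per day (adjusted p 0.0211), and its adjusted p was 0.115 without E11, 0.0589 without E12 and 0.0765 without P0.

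At the release site, Rims proteins form the scaffold that links vesicles to calcium channels. Rims1 read 5.36, 5.73, 8.29, 8.16, 9.41, 9.49, 9.31, 9.73 and 9.86 from E11 to P0, with 2.56 of the gain falling between E12 and E13. Its slope of 0.56 ± 0.09 per day (adjusted p 0.000757) was the second largest of the members, and P0 was 22.6-fold over E11. Rims2 rose by 0.14 ± 0.032 per day (adjusted p 0.00565) and Rims3 by 0.21 ± 0.063 per day (adjusted p 0.0189). The Rims3 call was lost without E11 (0.15, adjusted p 0.118) and without E12 (0.20, adjusted p 0.0533). Rims4 passed the filter through 2 arrays and had a slope of 0.094 ± 0.047 (SE, adjusted p 0.126). A different Rims4 probe set had a slope of 0.36 (adjusted p 0.000725). That set passed the filter only through E15, E18 and P0 (5.07, 5.24 and 5.12), its highest arrays. Most of its climb lay under log2 5, so it gives no firm rise for Rims4.

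Rab3 proteins are the GTP switches of the vesicle. Rab3b rose by 0.31 ± 0.041 per day (adjusted p 0.000226), and Rab3a by 0.15 ± 0.04 per day (adjusted p 0.0115). Rab3a read 9.34, 10.33, 10.30, 10.40, 10.24, 9.93, 10.90, 10.99 and 10.91 from E11 to P0: level from E12 to E15, lower at E16 and highest over the last 3 ages. Without the E11 array its slope was 0.105 with an adjusted p of 0.0771, and a second Rab3a probe set had the larger slope of 0.36 (adjusted p 0.000991). Rab3c had a slope of 0.18 ± 0.068 (SE, adjusted p 0.0534), close to the threshold, with its highest value at E16. It was called without E13 (0.21, adjusted p 0.0262) and without P0 (0.235, adjusted p 0.0378), and was 0.066 without E11. Snap91, which encodes AP180, an adaptor of the clathrin coat that retrieves vesicle membrane and not a SNARE, rose by 0.33 ± 0.066 per day (adjusted p 0.00245).

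The courses of the neuronal genes were front-loaded. Relative to its own mean over the arrays, the median neuronal gene stood at -1.88, -1.02, -0.08, -0.16, 0.57, 0.62, 0.53, 0.62 and 0.85 log2 units from E11 to P0. The gain from E11 was 1.80 by E13, and P0 lay 0.28 over E15. An early gain was not particular to these genes. The median course of the 12 neuron markers had gained 0.86 by E13 and 1.06 by P0. For the list of other release machinery described below, the values were 0.73 and 1.22. The difference of P0 from E15 was -0.03 for the neuron markers and 0.0 for that list. All 20 neuronal genes that rose gained at least 1 log2 unit between E11 and P0, and the middle of their gain was first reached at E12 in 3, at E13 in 15 and at E15 in 2 (Rab3b and Syt9). By E15 the median of them had 85.7% of its gain, against 79.8% over the 1877 genes of the array that rose by as much. The middle was reached by E13 in 46.9% of those 1877 genes. The largest daily step of the 20 risers was between E11 and E12 in 7, between E12 and E13 in 8 and between E14 and E15 in 5, and the shares among all rising genes were 14.5%, 34.6% and 24.8%.

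Curvature was tested with a quadratic term of age. The courses of 15 members bent downward, that is rose early and levelled or fell later, against 5.52% of all tested genes, and 12 of these were neuronal: Cplx1, Rab3c, Rims1, Snap25, Snap91, Sv2a, Syn2, Syn3, Syp, Syt1, Syt4 and Vamp2. The fitted turning points lay between day 15.7 for Syt4 and day 18.3 for Snap25. The others were Stx3, Syt7 and Syt16. Rab31 bent upward, as did 1.33% of all genes. The number of downward bends changed when single arrays were left out or sex was added as a covariate. In the members, 1 bent downward with sex as a covariate, 1 without E11, 4 without E15 and 7 each without E16 or E18. Of all genes 0.663% bent downward with that covariate, 2.0% without E11 and 2.13% without E15. The arrays that read as female were E11, E12, E15 and P0, so sex and a bend over age cannot be fully told apart.

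The E14 array stood low for several neuronal genes. It also had the largest gap between 3' and 5' probe sets of Gapdh (2.12 log2 units), whose part in these values was not tested. Counting genes at least 0.2 units under both E13 and E15, a size chosen after the values were seen, gave 7 of 23 neuronal and 5 of 25 general genes, against 18.4% of all genes. The median difference between E14 and the mean of its neighbours was -0.40 over the neuronal genes, -0.07 over the general genes, -0.33 over 12 neuron markers and -0.09 over all genes. Rims3 lay lowest against its neighbours among neuronal genes, at -1.23. Syt4, at 1.48, was the 1 neuronal gene at least 0.2 units over both neighbours, as were 7.05% of all genes.

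General members showed small changes in both directions. The 6 that rose were Vamp8, an endosomal and secretory granule SNARE (0.125 ± 0.038 per day, adjusted p 0.0202), Stx17, which serves autophagosome fusion (0.12 ± 0.025 per day, adjusted p 0.00359), the endosomal syntaxins Stx12 (0.10 ± 0.023 per day, adjusted p 0.00577) and Stx7 (0.093 ± 0.032 per day, adjusted p 0.0341), Snap47 (0.088 ± 0.032 per day, adjusted p 0.0431) and Vamp7, a lysosomal SNARE (0.062 ± 0.023 per day, adjusted p 0.0481). The calls of Vamp8, Stx7, Snap47 and Vamp7 each depended on single arrays. Without P0, Vamp8 had a slope of 0.10 (adjusted p 0.102). The Stx7 call was lost without E11, E12 or P0, with adjusted p-values from 0.0594 to 0.221. Snap47 was lost without any one of E11, E12, E14, E16, E18 and P0, with adjusted p-values of 0.0586 to 0.219, and Vamp7 without any one array but E18, with 0.0553 to 0.161. Stx17 rose on the probe set used alone: its 3 others had slopes of -0.051, 0.0080 and 0.028 that missed the threshold (adjusted p 0.513, 0.813 and 0.333). A different Stx12 probe set had a slope of 0.067 that missed it (adjusted p 0.127). A different Vamp7 probe set had a slope of -0.022 that missed the threshold.

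Stx2, a plasma membrane syntaxin found in many epithelia, read 8.58, 8.35, 8.13, 7.70, 7.90, 8.02, 7.67, 7.64 and 7.48 from E11 to P0. Its 3 highest arrays were the 3 earliest and its lowest was P0, and it fell by 0.12 ± 0.025 per day (SE, limma adjusted p 0.00353). Rab3ip, also called Rabin8, an exchange factor for Rab8 in membrane traffic, read 8.82, 8.30, 8.20, 8.15, 7.98, 7.70, 7.87, 8.04 and 7.98, high at E11 and lowest at E16. It fell by 0.088 ± 0.03 per day (SE, adjusted p 0.0326). A different Rab3ip probe set had a slope of -0.016 that missed the threshold (adjusted p 0.709). The call was lost without E11 (-0.050, adjusted p 0.199), E12 (-0.093, adjusted p 0.0529) or E17 (-0.085, adjusted p 0.06).

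Snap23, the relative of Snap25 in non-neuronal secretion, read 8.42, 7.71, 6.88, 7.28, 7.35, 7.65, 7.70, 7.28 and 6.96 from E11 to P0. It was highest at E11, fell to E13, climbed to E17 and fell again to P0. Its slope was -0.085 ± 0.05 (SE, adjusted p 0.185), and -0.020 without the E11 array. Without the E13 array it passed the threshold (-0.116, adjusted p 0.038). Vamp3, cellubrevin of recycling endosomes, read 11.23, 10.62, 10.50, 10.43, 10.50, 10.61, 10.61, 10.41 and 10.65, high at E11 and nearly level from E12 on. The slope of Vamp3 was -0.042 ± 0.028 (SE, adjusted p 0.242), and 0.0050 without E11. Rab3d, known from secretory granules of exocrine cells, read 6.87, 7.48, 8.10, 7.75, 8.36, 8.18, 7.47, 7.46 and 8.01, low at E11 and highest at E15, with a slope of 0.061 ± 0.053 (SE, adjusted p 0.37) that became -0.0060 without E11. Stx4a, a plasma membrane syntaxin, read between 7.23 and 7.92, with a slope of 0.054 that missed the threshold (adjusted p 0.126) and passed it without E11 (0.087, adjusted p 0.0303).

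The course of Stx3 differed between its probe sets. This syntaxin serves apical membranes and the ribbon synapses of the retina. The probe set of highest mean had a slope of 0.11 ± 0.058 (SE, adjusted p 0.133), with its highest value of 9.54 at E15. A different Stx3 probe set read 3.39, 5.21, 7.92, 7.65, 9.02, 8.94, 9.0, 8.94 and 9.23 from E11 to P0 and rose by 0.63 ± 0.13 (SE, adjusted p 0.00265), a course like those of the neuronal genes. Vamp4, of the trans-Golgi network, likewise had a slope of 0.027 (adjusted p 0.395) on the probe set used and 0.15 (adjusted p 0.000709) on a different one. Over all members, 37 had another probe set past the filter, 59 sets in all. Of the 19 called members among them, 13 had every other set called the same way, and 0 had one called the opposite way. For 6 members without a call another set was called: Rab39b, Rab3gap2, Rims4, Stx3, Syt4 and Vamp4. The remaining general members also missed the threshold, with slopes between -0.035 for Rab3gap2 and 0.13 for Vamp5. They were Rab3gap1, a regulator of Rab3 like Rab3gap2, Rab3il1, Snap29, Stx5a, Stx6, Stx8, Stx11, Stx16 and Stx18, and most of these syntaxins serve the Golgi, endosomes or endoplasmic reticulum.

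Among the other synaptotagmins, Syt13, which lacks the calcium-binding residues, read 3.28, 3.02, 4.30, 4.89, 6.29, 5.39, 5.70, 6.31 and 6.31 from E11 to P0. The 4 earliest arrays were under 5, so that the gene was tested through its later, higher arrays. With values under 5 set to 5 the slope was 0.18 (adjusted p 0.00613), and on the values as deposited the slope was 0.42 ± 0.069 per day (adjusted p 0.000792), with P0 at least 2.48-fold over E11. Syt7, a slow high-affinity calcium sensor, rose by 0.36 ± 0.059 per day (adjusted p 0.000797), Syt16 by 0.32 ± 0.076 per day (adjusted p 0.00591) and Syt17 by 0.24 ± 0.053 per day (adjusted p 0.00466). Without E11, Syt16 had a slope of 0.205 (adjusted p 0.0309). Syt11 read between 10.78 and 11.57 with a slope of 0.0020 (adjusted p 0.958). Syt14 read 9.34, 9.14, 9.42, 8.74, 9.06, 9.01, 8.55, 8.37 and 8.85 and was lowest at E18. It fell by 0.096 ± 0.031 per day (SE, adjusted p 0.0258), a call lost without E11 (adjusted p 0.0773), E17 (0.0528) or E18 (0.0823).

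Of Rab30 to Rab39, 4 of 10 rose, against 25.2% of all tested genes. The 4 were Rab34, a Golgi and ciliary GTPase (0.22 ± 0.027 per day, adjusted p 0.000159), Rab32 (0.21 ± 0.054 per day, adjusted p 0.00932), Rab33b (0.20 ± 0.033 per day, adjusted p 0.000812) and Rab33a (0.13 ± 0.038 per day, adjusted p 0.0197). Rab32 passed the level filter only through E18 and P0, its highest arrays, so its rise is partly what let it be tested. With values under 5 set to 5 its slope was 0.045 (adjusted p 0.159). The Rab32 call was also lost without P0 (adjusted p 0.0568), and the Rab33a call without E11 (0.118) or E12 (0.0638). The other 6, Rab39b, Rab36, Rab30, Rab39, Rab31 and Rab35, had slopes between -0.0060 and 0.047. Rab31 read 10.05, 10.10, 9.40, 9.63, 9.31, 9.55, 9.78, 9.96 and 10.24, high at both ends and lowest at E15.

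Neuronal and general relatives were compared directly as the slope of their log2 difference on the same array, with an exact permutation test over all 362880 orders of the 9 ages (two-sided, Benjamini-Hochberg over 4 pairs). Snap25 gained on Snap23 by 0.45 ± 0.097 log2 units per day (SE, n = 9, exact permutation p 7.16e-05, adjusted 0.000287). The Snap25 to Snap23 ratio changed 26.7-fold between E11 and P0. Vamp2 gained on Vamp3 by 0.43 ± 0.092 per day (SE, n = 9, exact permutation p 0.000187, adjusted 0.000375), a 16.6-fold change of the ratio. Stx1a gained on Stx2 by 0.34 ± 0.065 per day (SE, n = 9, exact permutation p 0.000364, adjusted 0.000485), an 8.05-fold change. In these 3 pairs the neuronal gene had risen by P0 and its relative was lower at P0 than at E11. For Rab3a and Rab3d the slope of the difference was 0.09 ± 0.079 (SE, n = 9, exact permutation p 0.291), and the ratio changed 1.36-fold. That p does not show that the Rab3 genes moved alike, since other probe sets of the same pair gave slopes up to 0.40. Other probe sets gave 0.33 to 0.47 for the Snap pair over 6 combinations, 0.22 to 0.43 for the Vamp pair over 6, and 0.34 to 0.46 for the syntaxins over 2. The highest exact permutation p of these was 0.00606, 0.0858 and 0.000364, so that 1 or more Vamp combinations missed the threshold.

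**Figure D4:**
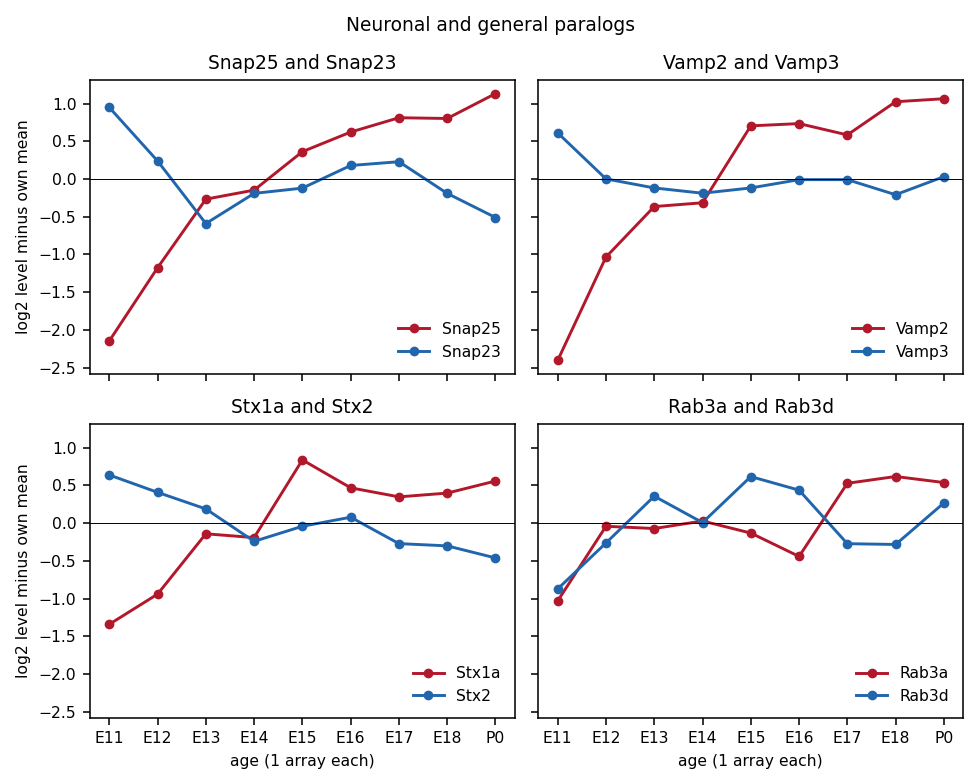
Log2 level minus its own mean at each age (1 array each) for the 4 pairs of a neuronal and a general relative. The neuronal gene lies below its mean at E11 and above it at P0 in each pair, and the lines part most for Snap25 and Snap23. Relative to their own means, Rab3a lies under Rab3d at E15 and E16 and over it at E17 and E18.

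Other release machinery was counted from a separate list. This list of 77 further genes of priming, docking, vesicle filling and retrieval had 59 tested, of which 38 rose, 3 fell and 18 missed the threshold, with a median slope of 0.14 against 0.002 over all genes, of which 25.2% rose. The largest rises were Synpr, a synaptophysin relative, at 0.76, Lin7b, an adaptor of the presynaptic scaffold, at 0.64, and Sh3gl2, endophilin of vesicle retrieval, at 0.55. Lin7b read 3.16 to 4.22 from E11 to E14, under the filter level, and was tested through its later, higher arrays. Nsf, the ATPase that takes spent SNARE bundles apart, rose by 0.33, and its partner Napb by 0.41. Of the transporters that fill the vesicle, Slc32a1 for GABA rose by 0.38 and Slc17a7 for glutamate by 0.34, while Slc17a6, also for glutamate, had a slope of 0.066 (adjusted p 0.113). Slc17a7 too was under the filter level from E11 to E14 (2.51 to 4.46) and reached 6.02 at most, so it was tested through its later arrays. The falls were Cadps2 at -0.15, Stxbp4 at -0.12 and Unc13b, a priming factor, at -0.093.

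Markers of neurons and of other cells moved over the same ages, over which 25.2% of all tested genes rose and 21.9% fell. Of 12 neuron markers 7 rose and 0 fell, and their median course gained 1.06 units between E11 and P0, against 2.73 for the neuronal vesicle genes. All 8 progenitor markers fell. All 5 interneuron markers rose, among them Gad1 (0.425) and Th (0.50). Both tested markers of olfactory sensory neurons rose too, although Gng13 was tested only through its late, highest arrays. Of 4 mitral and tufted cell markers 2 rose (Tbx21 and Cdhr1) and 1 fell (Tbr1). Of 4 tested endothelial markers 2 rose. All 6 tested microglial markers (Aif1 and Ptprc did not pass the filter), 7 of 8 meningeal markers and all 5 ensheathing glia markers rose, and 4 of 5 red cell markers fell. Some of these risers were under log2 5 on the early arrays, so their rise is partly what let them be tested. Among them, C1qa and C1qc were under 5 to E14, S100b to E15, and Col1a1, Ogn and Slc6a13 to E13. The red cell markers Hba-x and Hbb-bh1 were under 5 from E15 on and were tested through their early arrays. All 3 tested endocrine markers (Chga, Chgb and Scg2, which neurons also express) rose, with Ins2 and Gh under the filter. In ranges over the ages, the median level was 10.68 to 11.90 for neuron markers, 10.14 to 12.17 for progenitors, 4.96 to 7.49 for microglia, 5.09 to 11.13 for meninges, 8.87 to 12.20 for mitral and tufted cells, 9.02 to 10.30 for interneurons, 3.95 to 6.98 for olfactory sensory neurons, 6.33 to 10.78 for endocrine cells, 6.57 to 8.37 for endothelium, 4.77 to 10.11 for ensheathing glia and 3.02 to 13.19 for red cells. The part of these cells in the courses of the vesicle genes was not tested.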

How the data were processed

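The deposited table held log2 expression values for 45101 probe sets on 9 arrays, made by the authors with GCRMA per the submitters' processing notes. The labels name no GCRMA version, and that they are log2 values was judged by their range. The deposited log2 values were used without further scaling. Probe sets of 1 gene symbol (34945) gave 18193 genes, of which 10864 had a probe set at log2 5 or more on at least 2 arrays. The probe set of highest mean stood for a gene.

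Slopes and quadratic terms of age were fitted to all 10864 genes with limma 3.58.1 in R 4.3.3 (variance trend, two-sided, Benjamini-Hochberg, threshold 0.05). P0 stood at day 19. Folds set values under 5 to 5. Pairs of relatives were tested by exact permutation. One item is not reported here, and 4 pairs were compared.

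Values on every array were given for the genes of the pairs, for Syp, Syn1 to Syn3, Sv2a, Sv2b, Syt1, Cplx1, Cplx2 and Rims1, and for the members with the largest slopes (5 rising, 3 falling). Of the release machinery list, the 3 largest rises and falls and genes needed to describe it were named. Array values of Syt4, Syt9, Stx3 and Rab31, and the GGGCGG motif, were chosen after their values were seen. The members, classes and lists were chosen with earlier results of these data known. Each age had 1 array, so samples could not be paired. The fits were tested on simulated data. Alternatives covered normalization, filters, leaving out each array, sex, the day given to P0, and rank correlation.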

Additional observations from a re-analysis of the deposited data

How the results depend on the processing

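No paired analysis was possible because each age has 1 array and the labels carry no replicate numbers. The limits are those of 9 single arrays: animal, age, sex and array cannot be told apart at any age. Of the 37 members with a call, 15 kept it under all 20 alternatives for the slope and 22 lost it under at least 1. The number of members that rose, 34, was 26 to 34 when each array was left out in turn and 19 from E13 to P0 alone, and 3 members that fell became 1 to 4, 0 from E13 to P0 and 1 by exact rank correlation. Neuronal genes that rose, 20, were 15 to 21 with an array left out, 10 from E13 to P0 and 13 by exact rank correlation, by which 19% of all genes rose. General genes that rose, 6, were 2 to 5 with an array left out and 3 each with median centring, with sex as a covariate, with no filter and from E13 to P0. General genes that fell, 2, were 1 to 3 with an array left out, 1 each with sex as a covariate, no filter or rank correlation, and 0 from E13 to P0. Downward bends, 15, were 1 to 16 with an array left out, 1 with sex as a covariate and 6 with no filter. Over all genes, 20.4% to 25.4% rose and 16.6% to 21.5% fell with an array left out. From E13 to P0 14.0% rose and 11.2% fell, and with no filter 14.7% and 12.3%. With sex as a covariate 23.3% rose and 19.8% fell. Median centring gave 22.0% rising, and rank correlation 18.6% falling. Of all genes 2.0% to 5.55% bent downward with an array left out, 0.663% with sex as a covariate and 1.35% with no filter. The slope differences of the pairs of Snap25 (0.313 to 0.501 with an array left out), Vamp2 (0.286 to 0.498), Stx1a (0.274 to 0.377) and Rab3a (0.047 to 0.122) kept their direction and their side of the threshold under every other normalization, left-out array, sex or age setting tried. Other level filters were not tried for the pairs. The Rab3 pair was also not tested in the setting without probe sets whose names end in _x_at, _s_at or _a_at. Over other probe sets, tried after seeing the data, the Vamp pair missed the threshold in 1 or more combinations (exact permutation p up to 0.0858). The slope changed sign under at least 1 alternative in 2 members with a call (Snap47 and Syt5) and 14 without. Of those 14, Rab30, Rab31, Rab35, Rab39, Snap29, Stx6, Stx16 and Syt11 had slopes between -0.0060 and 0.063. For the others and the 2 called members slopes changed sign from E13 to P0 for Rab3c (-0.035), Rab3d (-0.062), Snap23 (0.021), Snap47 (-0.0010), Stx3 (-0.031), Syt4 (-0.146), Syt5 (-0.014) and Vamp3 (0.019), and without E11 for Rab3d (-0.0060, with up to 0.092 when other arrays were left out) and Vamp3 (0.0050, with down to -0.064). Fits with an array left out or from E13 on rest on fewer arrays. Why calls were lost or slopes changed sign was not tested.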
